A study of Mus musculus with 6 samples.

Results

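The semaphorin signalling family of the mouse was followed through the binding sites of the transcription factor E2A: 20 semaphorins, which are the ligands, and 11 receptors, made up of 9 plexins and 2 neuropilins. These 31 genes were chosen by family name, and every peak that the deposited annotation gives to any of them was taken, wherever it lies. They received 514 of the 91185 peaks in the 5 lists together, and 72 of the 12322 regions found in at least 2 of the 3 wild-type lists, called wt consensus regions from here on. Of the 31 genes, 28 had a peak in at least 1 list (52.1% of the other 21869 protein-coding genes did), 12 had a peak in all 5 lists (other genes 13.7%), and Sema4f, Sema6c and Plxna3 had none.

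Binding was measured by ChIP-seq (sequencing of DNA precipitated with an antibody against E2A) on neural stem cells of C57BL/6J mice, taken from E12.5 embryos and kept dividing with 20 ng/ml each of EGF and FGF-2. The libraries analysed were 1 from cells without the E12 form of E2A (E12KO, genotype E12-/-), 1 from cells without the E47 form (E47KO, genotype E47-/-) and 3 from wild-type cells (wt replicates 1 to 3); an input library without antibody was not analysed here. Whether the wt libraries came from separate embryos or cultures is not stated in the labels, so the spread between them may be technical, and each knockout stands on a single library. Peak lists hold neither read totals nor expression levels, so read depth is unknown, the cell type could not be checked against marker genes, and the knockout labels could not be checked on the targeted exon.

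Semaphorins are secreted or membrane-bound proteins that steer growing axons, migrating neurons and blood vessels, mostly by repulsion. They bind plexins, which carry a GTPase-activating domain inside the cell and loosen the cytoskeleton and cell adhesion. Most secreted semaphorins of class 3 need a neuropilin as the binding partner of a class A plexin, whereas transmembrane semaphorins bind plexins directly. E2A is made from Tcf3, whose alternative exons give the E12 and E47 proteins, and it binds E-box DNA (CANNTG) as a dimer with other basic helix-loop-helix factors.

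The DNA just upstream of the starts of 6 bound promoters is shown so that its letters can be read beside the values that follow. Each line holds the 250 bases before a RefSeq transcript start (GRCm38.p6 coordinates, 5′ to 3′ along the gene), in lower case with each E-box in capitals. The peaks are on mm9, so a RefSeq start was paired with a bound mm9 start only where the lengths from start to gene end agreed within 30 bp, which left 11 windows. Of these, 5 lay at a wt consensus region, and the Sema3c window is added because its promoter had a peak in both knockouts and in no wt list.
Sema3c (chr5:17574566-17574815, + strand): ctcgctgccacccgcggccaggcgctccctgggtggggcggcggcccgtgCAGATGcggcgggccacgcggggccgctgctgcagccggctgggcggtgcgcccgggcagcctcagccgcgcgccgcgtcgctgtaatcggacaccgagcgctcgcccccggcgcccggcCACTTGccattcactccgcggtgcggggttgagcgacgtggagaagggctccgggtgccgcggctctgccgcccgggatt
Sema4b (chr7:80198338-80198587, + strand): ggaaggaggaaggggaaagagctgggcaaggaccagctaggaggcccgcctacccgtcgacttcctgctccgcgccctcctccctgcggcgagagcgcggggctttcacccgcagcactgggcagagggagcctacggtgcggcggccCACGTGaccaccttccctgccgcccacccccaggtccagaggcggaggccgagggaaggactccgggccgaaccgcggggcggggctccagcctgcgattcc
Sema4g (chr19:44989094-44989343, + strand): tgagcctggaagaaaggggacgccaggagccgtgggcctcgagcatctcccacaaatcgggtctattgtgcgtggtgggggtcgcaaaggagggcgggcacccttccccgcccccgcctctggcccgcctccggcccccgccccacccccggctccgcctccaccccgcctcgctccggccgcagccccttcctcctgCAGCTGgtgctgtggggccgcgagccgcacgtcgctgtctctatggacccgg
Sema5b (chr16:35541112-35541361, + strand): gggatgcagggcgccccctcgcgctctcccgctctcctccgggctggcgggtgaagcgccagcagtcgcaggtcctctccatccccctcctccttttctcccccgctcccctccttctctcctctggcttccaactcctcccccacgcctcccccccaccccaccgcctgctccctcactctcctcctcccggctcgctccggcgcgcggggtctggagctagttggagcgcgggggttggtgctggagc
Plxnb1 (chr9:109095186-109095435, + strand): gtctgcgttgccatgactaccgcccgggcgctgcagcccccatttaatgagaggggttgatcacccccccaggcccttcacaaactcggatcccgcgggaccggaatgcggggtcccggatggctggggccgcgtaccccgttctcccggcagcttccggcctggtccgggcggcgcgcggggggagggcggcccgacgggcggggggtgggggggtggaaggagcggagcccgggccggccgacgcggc
Plxnb2 (chr15:89180789-89181038, - strand): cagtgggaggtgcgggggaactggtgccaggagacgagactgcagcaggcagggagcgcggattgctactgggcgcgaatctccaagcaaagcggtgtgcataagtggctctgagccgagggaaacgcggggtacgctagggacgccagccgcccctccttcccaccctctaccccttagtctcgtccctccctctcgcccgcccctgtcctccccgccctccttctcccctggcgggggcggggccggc

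An E-box stood in 3 of these 6 windows. Sema3c held CAGATG starting 200 bases and CACTTG starting 80 bases before the start, Sema4b (the second of its 2 bound starts) held CACGTG at 102 bases, and Sema4g held CAGCTG at 52 bases. The Sema5b, Plxnb1 and Plxnb2 windows held none; of these genes Plxnb2 carried the strongest peak of the family. Over all 11 paired windows 4 held an E-box, the other being that of Sema7a with CAGCTG at 193 bases. Searched for CANNTG, which reads the same on both strands, 51.4% of the 37 windows of the 26 family genes in the table and 66.2% of all 32851 windows held a match. CAGCTG, 1 form of CANNTG, stood in 16.2% of the family windows and 13% of all, and CAGGTG or its other-strand spelling CACCTG in 13.5% and 17.2%. The family windows had a median GC content of 64.0%, against 52.4% over all windows. A match here is a spelling and not a measured site, and a window without a match says nothing on binding elsewhere under the peak.

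The peaks reached beyond these windows. At Plxnb2 they ran from 684 bases before to 857 after the start in E12KO and from 299 before to 323 after in E47KO. In the wt lists the same peak spanned 393 before to 262 after, 139 before to 253 after, and 498 before to 302 after the start. The peaks of all 5 lists therefore covered the Plxnb2 start, and the E12KO peak was the widest of them. Over all genes too, peaks had the highest median width in E12KO. It was 616 bp, against 550 bp in E47KO and 432.5, 420 and 549 bp in the wt lists. At Sema3c the E12KO peak ended 124 bases before the start, and the E47KO peak ran from 592 bases before to 80 after it. The Sema3c CACTTG thus lay outside the E12KO peak. At Sema4g the E12KO peak began 15 bases before the start, so the CAGCTG at 52 bases lay outside it.

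Every list gave peaks to the family, and each knockout list named nearly as many of its genes as the longest wt list. E12KO held 131 family peaks (0.519% of its 25229 peaks) and E47KO held 130 (0.586% of 22176). The wt lists held 46 (0.675% of 6814), 65 (0.509% of 12772) and 142 (0.587% of 24194). The family's share of a list thus lay between 0.509% and 0.675% everywhere, and both knockouts fell inside the wt range. A peak was given to 27 of the 31 genes in E12KO, where 45.1% of the other 21869 protein-coding genes had one, and to 25 in E47KO (other genes 40.6%). In the wt lists the numbers were 15 (17.4%), 18 (27.7%) and 28 (42.8%).

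Gene by gene, the number of peaks in each knockout lay within the range of the 3 wt lists for 25 of 31 members. It was above that range for Sema3d, Sema3e, Sema4g, Sema6a, Plxnb3 and Nrp2 in E12KO. In E47KO it was above for Sema6a, Sema6b, Plxna2, Plxnd1, Nrp1 and Nrp2, and in neither was it below for any member. A gene with 0 peaks in any wt list could not fall below, and only 15 of the 31 members had a peak in wt replicate 1. Sema4f, Sema6c and Plxna3, at 0 in every list, count as within the range. Sema6a, a transmembrane ligand of class A plexins, had 8 peaks in E12KO and 10 in E47KO, against 4, 4 and 6 in the wt lists. Nrp2, the neuropilin that binds Sema3f, had 9 in E12KO and 7 in E47KO, against 3, 4 and 6. These were the only members with more peaks in both knockout lists than in any wt list. Among the 11391 other protein-coding genes with a peak in any list, 24.8% had more peaks in E12KO than in any wt list, 15.5% in E47KO and 8.65% in both, and 0.123% and 0.255% had fewer in E12KO and in E47KO than in any wt list. Set against the 28 members with a peak, such counts were common, and with 1 library per knockout no test was possible.

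**Figure D1:**
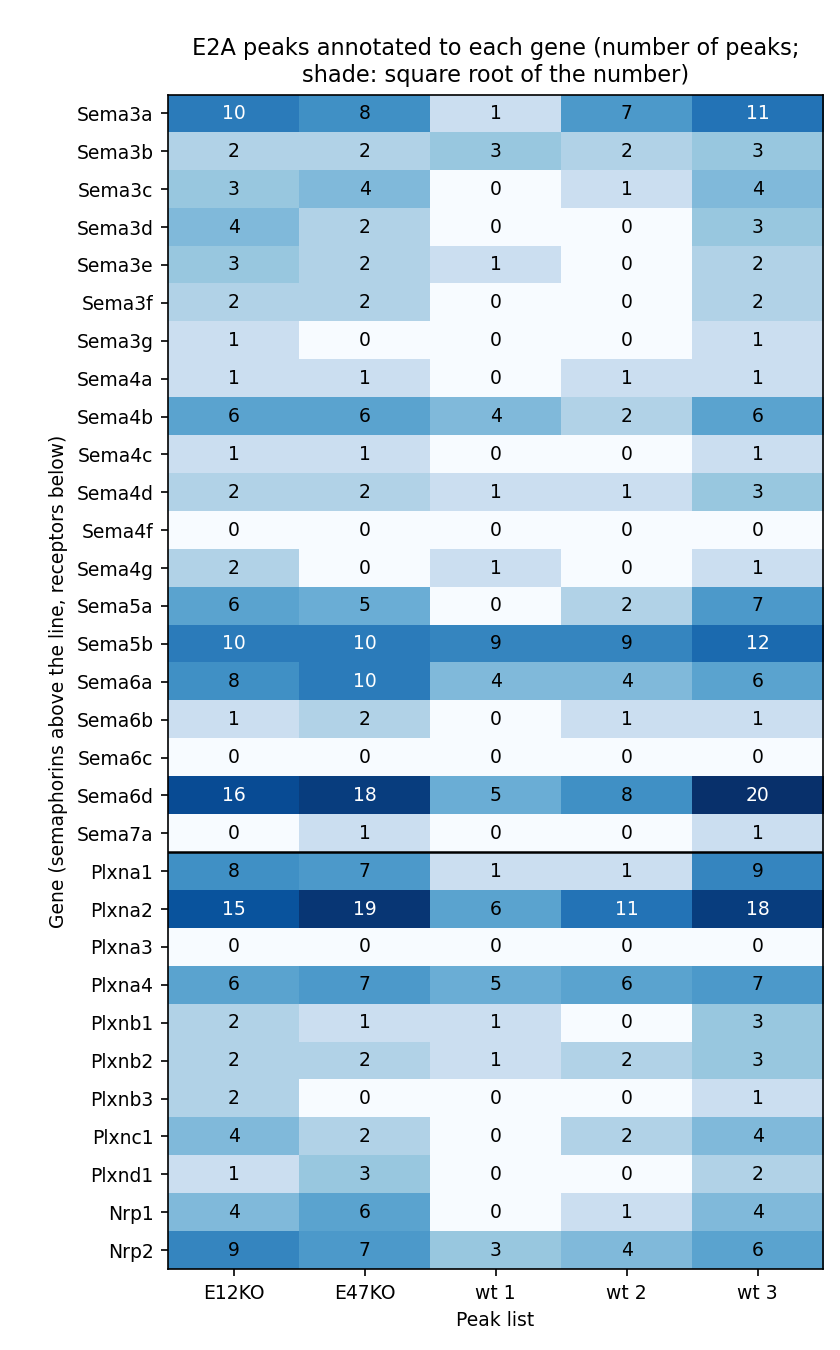
Number of E2A peaks annotated to each of the 31 genes (vertical) in each of the 5 peak lists (horizontal; knockouts left, wt replicates 1 to 3 right), with the number in each cell and darker shading for more peaks. Plxna2 and Sema6d have the highest numbers in both knockouts and in wt replicate 3, while Sema4f, Sema6c and Plxna3 are at 0 in every list.

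A wt consensus region was annotated to 21 of the 31 genes (67.7%, 95% Wilson interval 50.1 to 81.4, counting error only), where 27.3% of the other protein-coding genes had one. Counting only regions whose midpoint lay within 10 kb of the annotated start, 13 members had one (41.9%, 26.4 to 59.2), and 16.3% of the other genes did. Among other genes the share with a region was higher the longer the gene, so members were also set beside genes of their own length. Among genes under 25 kb (longest transcript that the lists give, hence genes named in at least 1 list), 4 of 9 members and 44.8% of other genes had a wt consensus region. Between 25 and 100 kb it was 7 of 8 members and 55.1% of other genes, between 100 and 200 kb 6 of 6 and 69.5%, and from 200 kb upward 4 of 5 and 77.2%. In the class of 100 to 200 kb, members held 5.17 regions per gene and other genes 1.73, and in the longest class 4.4 and 2.52. In the shortest class members held 0.556 and other genes 0.688, so the order was not the same at every length. The part of gene length in these counts beyond such classes was not tested.

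The shares of ligands and receptors with a region were close. A wt consensus region was annotated to 13 of 20 ligands (65.0%, 43.3 to 81.9) and to 8 of 11 receptors (72.7%, 43.4 to 90.3), and within 10 kb to 8 of 20 ligands and 5 of 11 receptors. Ligands held 42 regions, or 2.1 per gene, and receptors 30, or 2.73 per gene. The intervals of the shares overlap almost completely, and no test of this difference was made since genes are not replicates. Plxna2 alone held 11 of the 30 receptor regions.

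The 7 secreted class 3 semaphorins carried 11 wt consensus regions, none of them in a promoter. Sema3a, the prototype repellent of class A plexins and Nrp1, had 7 of them, all in its own introns. Its peaks numbered 10 in E12KO and 8 in E47KO, against 1, 7 and 11 in the wt lists. So the count of wt replicate 1 stood far below the other two wt lists, and both knockouts lay inside the wt range. Only the region in intron 2 at chr5:13263041-13263883 (mm9) has an enrichment value, 5.51-fold in wt replicate 1. It was also the only Sema3a region present in all 5 lists.

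Sema3b had 2 regions, both in all 5 lists: chr9:107514204-107515561, annotated downstream of a gene end, with 13.1-fold enrichment, and chr9:107517198-107517801, annotated to a 3′ UTR, with 4.02-fold. Its peaks numbered 2 in E12KO and 2 in E47KO, against 3, 2 and 3 in the wt lists. It was the only class 3 semaphorin with a region within 10 kb of its start (midpoints 3310 and 5928 bp upstream). Because these regions lie upstream of that start, the gene end and the 3′ UTR are not those of the Sema3b transcript named. Sema3c, important in heart outflow tract development, had a single region 23.8 kb upstream (chr5:17056721-17056967), present in E12KO and missing in E47KO. Sema3e, which signals through Plxnd1 without a neuropilin, had a single region in intron 1 (chr5:14039169-14039516, 5.28-fold), present in both knockouts. Both lay in only 2 of the 3 wt lists.

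Sema3d, Sema3f and Sema3g had no wt consensus region, yet each had peaks in wt replicate 3 and in at least 1 knockout. Sema3f, the ligand of Nrp2, had 2 intronic peaks in E12KO, in E47KO and in wt replicate 3, at about the same places 3.42 to 3.76 kb and 11.8 kb after its start. Sema3d had 4 peaks in E12KO and 2 in E47KO, against 3 in wt replicate 3 and 0 in the other wt lists. Sema3g had 1 peak in E12KO and 1 in wt replicate 3, 2.24 and 2.29 kb upstream of its start. The same genes were thus empty in the shorter wt lists, 1 and 2, and occupied in the longest.

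The 12 transmembrane semaphorins carried 31 wt consensus regions, 7 of them in promoters. Sema5b, which has thrombospondin repeats outside the cell, held 9 regions: 1 at its promoter and 8 within 50.4 kb of its first intron. Peaks on Sema5b numbered 10 in E12KO and 10 in E47KO, against 9, 9 and 12 in the wt lists, so the 5 lists were close together. The strongest region lay at chr16:35603581-35604352, with 32.0-fold enrichment and a pileup of 89 in wt replicate 1, and the intron also held regions with 23.8-fold and 18.2-fold. Of its 9 regions, 7 were in all 5 lists. Gaps between neighbouring Sema5b regions had a median of 5.99 kb, against 23.9 kb over the 5901 gaps between neighbouring regions of the same gene in the whole set.

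A Sema5b region in intron 1 at chr16:35581337-35581809 was the only one of the 31 family regions in all 3 wt lists that lacked a peak in a knockout. It had no peak in E12KO and a peak of 491 bp in E47KO, against 385, 403 and 342 bp in the wt lists, with 5.51-fold enrichment in wt replicate 1. The Sema5b promoter at chr16:35541075-35542679 (13.6-fold) had a peak of 1480 bp in E12KO and 385 bp in E47KO, against 619 and 1473 bp in wt replicates 1 and 3 and none in wt replicate 2.

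**Figure D2:**
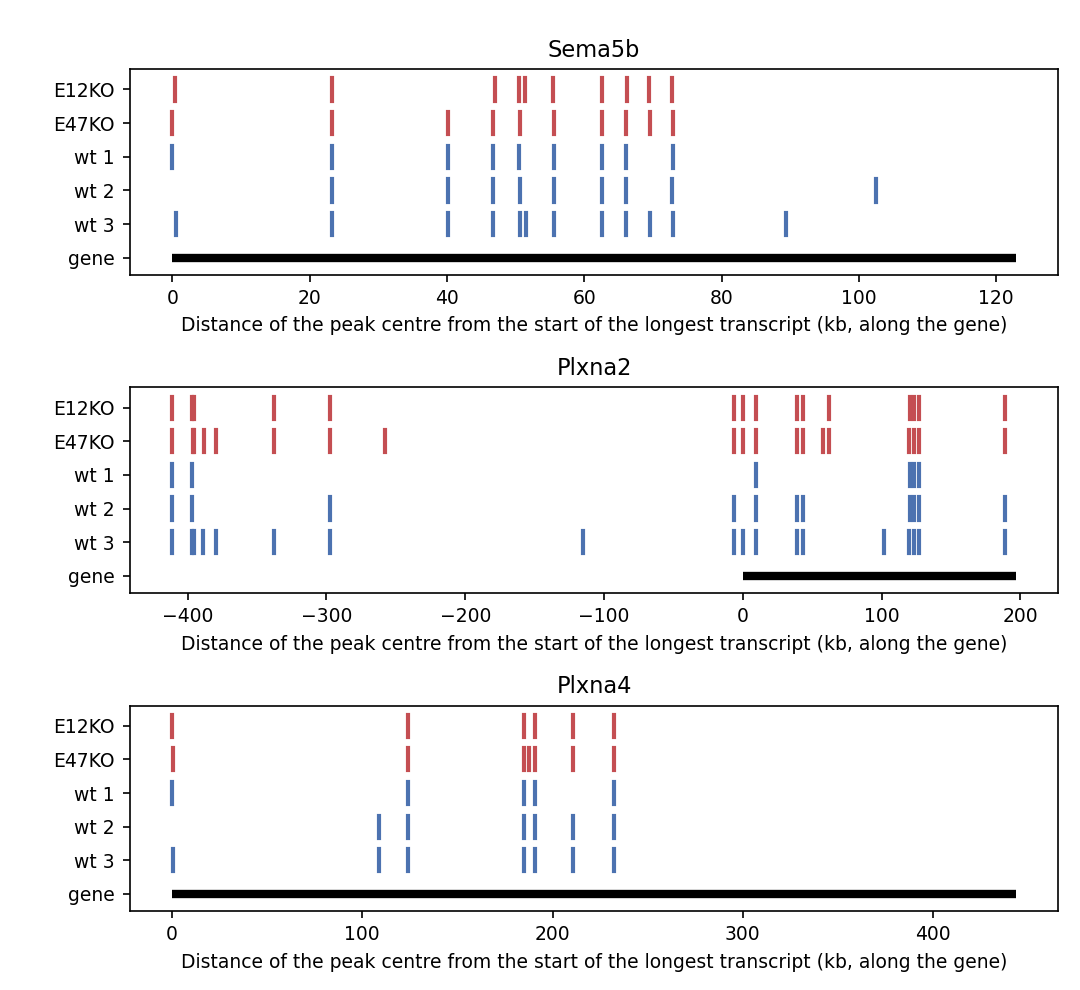
Peak centres along Sema5b, Plxna2 and Plxna4 (horizontal: distance in kb from the start of the longest transcript, drawn in the direction of the gene) in the E12KO and E47KO lists (red) and the 3 wt lists (blue), with the gene as a black bar. The 8 regions of Sema5b intron 1 recur in every list except for 1 that is missing in E12KO, Plxna2 has peaks inside the gene and up to 411 kb upstream, and the intronic peaks of Plxna4 lie about 109 to 232 kb after its start.

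Sema6d, which binds Plxna1 and whose longest transcript spans 578 kb, had 7 regions spread over its gene and both flanks. Its peaks numbered 16 in E12KO and 18 in E47KO, against 5, 8 and 20 in the wt lists, a wt mean of 11 ± 7.94 (SD, n = 3). The strongest ligand region of the family lay 182589 bp downstream of the annotated start at chr2:124618043-124619199, in intergenic DNA, with 41.7-fold enrichment and a pileup of 165. It was in all 5 lists, as were an upstream region (chr2:123638503-123639817, 10.8-fold) and a promoter region (chr2:124435281-124436567, 8.73-fold). These 3 regions were 1157 to 1315 bp wide once merged. Another 2 Sema6d regions were missing in E12KO, and 1 of them in E47KO too.

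Sema4b had 5 regions, 4 of them within 10 kb of a start. They included a promoter at each of 2 annotated starts, chr7:87331563-87332227 (9.27-fold) and chr7:87342956-87343738 (3.81-fold), and an intron 1 region at chr7:87337099-87337754 with 14.6-fold enrichment. All 5 had a peak in both knockouts, but only the 14.6-fold region was in all 3 wt lists. Peaks numbered 6 in E12KO and 6 in E47KO, against 4, 2 and 6 in the wt lists.

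Sema6a had 4 regions, of which 2 were neighbouring promoter regions 199 bp apart (chr18:47528365-47529056, 5.66-fold, and chr18:47529256-47530121, 6.18-fold). A single peak of 1896 bp in E12KO and of 2013 bp in E47KO spanned both of them, so they are not separate sites in the knockout lists. The strongest wt consensus region of Sema6a was in intron 1 (chr18:47492944-47493777, 6.81-fold) and was in all 5 lists. A stronger peak of wt replicate 1 (chr18:47494181-47494551, 8.87-fold) lay in no wt consensus region.

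The other transmembrane ligands had 1 or 2 regions or none. Sema4g, a ligand of Plxnb2, had only its promoter at chr19:45063535-45063900 (4.63-fold), with peaks of 316 bp in E12KO, none in E47KO, and 280 and 366 bp in wt replicates 1 and 3. The E12KO peak ran from 15 bases before to 300 after the start. The peak of wt replicate 1 ran from 294 to 15 bases before it, and that of wt replicate 3 from 299 before to 66 after. The E12KO peak thus lay mostly after the start and overlapped the wt peaks only in part. Sema5a, also with thrombospondin repeats, had 2 intronic regions within 10 kb of an annotated start, both in both knockouts, the wider at chr15:32526809-32527484. Sema4d, the ligand of Plxnb1, had an intron 2 region at chr13:51856520-51856984, Sema4a an upstream region at chr3:88276882-88277369, and Sema6b a region 2182 bp upstream at chr17:56281759-56282137. These 3 regions were in both knockouts and in wt replicates 2 and 3, so no enrichment value exists for them. Sema4d also had a peak in wt replicate 1 that lay in no wt consensus region (chr13:51888879-51889280, 9.61-fold). Sema4c, a ligand of Plxnb2, had no wt consensus region but a promoter peak of 1995 bp in E12KO, 1856 bp in E47KO and 1864 bp in wt replicate 3.

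Sema7a, anchored to the membrane by a GPI link and bound by Plxnc1 and integrins, had no wt consensus region. Its promoter had a peak of 1089 bp in E47KO and of 1180 bp in wt replicate 3, and none in E12KO or in the other wt lists. Along with Sema4c it shows that the rule of 2 wt lists leaves out promoters that were wide peaks in a knockout and in the longest wt list.

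Among the receptors, the class A plexins, which transduce class 3 and class 6 semaphorins, held 20 of the 25 plexin regions. Plxna2 held 11, and only 28 of the 6369 genes with a wt consensus region had more. Its peaks numbered 15 in E12KO and 19 in E47KO, against 6, 11 and 18 in the wt lists, a wt mean of 11.7 ± 6.03 (SD, n = 3). The E47KO count was 1 above the highest wt count, and the E12KO count lay inside the wt range. All 11 regions had a peak in both knockouts, and 6 were in all 5 lists. None of them was a promoter region. A peak at the Plxna2 start, of 1506 bp in E12KO, 1344 bp in E47KO and 1447 bp in wt replicate 3, was in no other wt list.

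The strongest Plxna2 region lay in intron 1, 9630 bp after the start, at chr1:196455231-196456076, with 20.7-fold enrichment and a pileup of 80. Its peak was 685 bp wide in E12KO and 719 bp in E47KO, against 540, 560 and 846 bp in the wt lists, so the knockout widths lay inside the wt range. A group of 3 regions within 8.03 kb of introns 4 and 5 had 10.3-fold, 8.48-fold and 10.7-fold enrichment, each in all 5 lists. A further 4 Plxna2 regions lay in intergenic DNA upstream, 3 of them 297 to 411 kb from the start. For such distant regions the annotation names the nearest start only, and the gene they act on is not known from these data.

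Plxna4 had 7 regions, 6 of them within 124 kb of its long intron 3. Peaks numbered 6 in E12KO and 7 in E47KO, against 5, 6 and 7 in the wt lists, so both knockouts lay inside the wt range. The strongest was at chr6:32352729-32353368 (12.4-fold, in all 5 lists), followed by chr6:32413810-32414600 (10.5-fold). The promoter at chr6:32537345-32538451 (7.84-fold) was in both knockouts and in wt replicates 1 and 3. The intron 3 region at chr6:32429189-32429511 was missing from both knockouts.

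Plxna1, a receptor for Sema6d, had 2 intronic regions, at chr6:89277939-89278497 in intron 23 with 13.2-fold enrichment and at chr6:89297893-89298828 in intron 3, which has no peak in wt replicate 1 and so no value. Its peaks numbered 8 in E12KO and 7 in E47KO, against 1, 1 and 9 in the wt lists. Here 2 of the 3 wt lists stood far below the knockouts and the third stood above them.

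The class B plexins, receptors of class 4 semaphorins, had few regions but the strongest of the whole family. The Plxnb2 promoter at chr15:89010916-89011716 was in all 5 lists with 53.5-fold enrichment and a pileup of 164, and 32 of the 6814 peaks of wt replicate 1 had a higher enrichment. Plxnb2 is needed for normal proliferation and migration of neural progenitors in the mouse brain. Its second region lay in intron 3 at chr15:88999759-89000289, in both knockouts and in wt replicates 2 and 3. The Plxnb1 promoter at chr9:108997601-108998783 (5.64-fold) was in both knockouts and in wt replicates 1 and 3. Plxnb3, a receptor of Sema5a, had no wt consensus region, but 2 peaks in E12KO and 1 in wt replicate 3.

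Plxnc1, the receptor of Sema7a, had 2 upstream intergenic regions, at 69.6 and 91.1 kb, in both knockouts and in wt replicates 2 and 3; the wider was chr10:94498030-94498523. Plxnd1, the receptor of Sema3e in vessels and neurons, had none, but an intronic peak 3.11 to 3.18 kb after its start in E12KO, E47KO and wt replicate 3. Its promoter had a peak in E47KO and in wt replicate 3.

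Both neuropilins had wt consensus regions. Nrp1, the partner of Sema3a, had a single region, annotated as promoter, at chr8:130880896-130883240. Its midpoint lay 905 bp upstream of the start, and the region reached past the start. It was merged from peaks of all 3 wt lists and overlapped by peaks of both knockouts. The part of it seen in wt replicate 1 (7.69-fold) was annotated there to Mir1903, a neighbouring microRNA gene, so wt replicate 1 counts 0 peaks for Nrp1. Peaks on Nrp1 numbered 4 in E12KO and 6 in E47KO, against 0, 1 and 4 in the wt lists. Nrp2 had 4 regions, none within 10 kb, the strongest 38.1 kb upstream at chr1:62711501-62712099 (6.65-fold, in all 5 lists). Its intron 13 region at chr1:62830205-62830949 (4.64-fold) was present in E12KO and missing in E47KO.

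**Figure D3:**
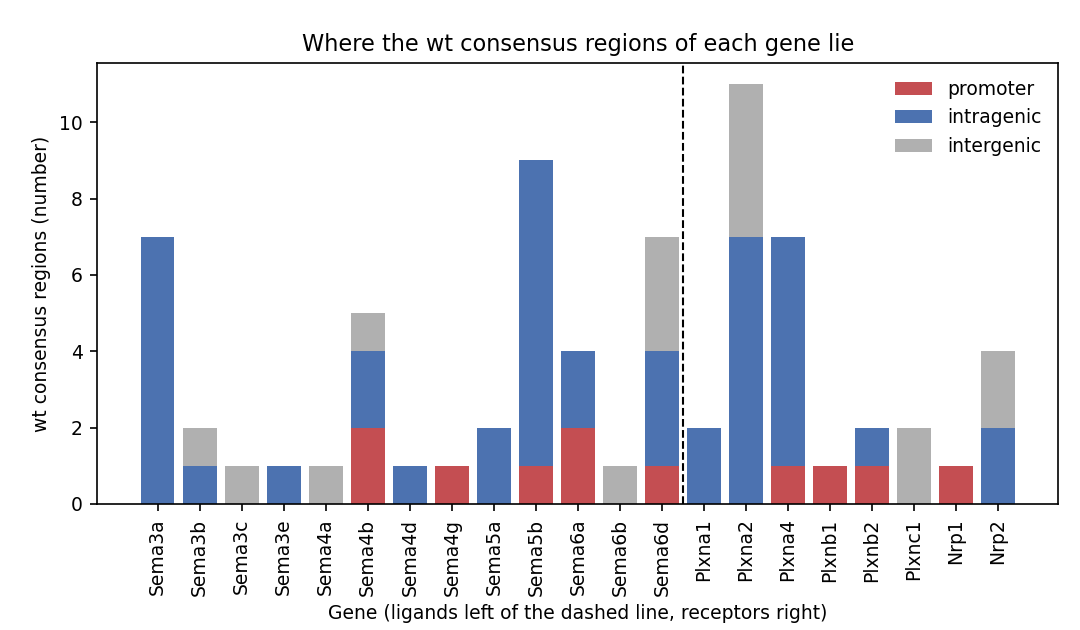
Number of wt consensus regions (vertical) of the 21 genes that have any (horizontal; semaphorins left of the dashed line, plexins and neuropilins right), stacked by promoter, intragenic and intergenic position. Plxna2, Sema5b, Sema3a, Sema6d and Plxna4 hold 7 to 11 regions each, mostly inside the gene except at Sema6d. Sema6d has 3 intragenic, 3 intergenic and 1 promoter region.

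Most family regions lay inside the genes. Of the 72 regions 45 were intragenic, meaning in an intron, an exon or a UTR (62.5%, 51.0 to 72.8), where 40.8% of the regions of other genes were. A promoter held 11 (15.3%, 8.75 to 25.3; other genes 22.4%), and 16 were intergenic (22.2%, 14.2 to 33.1; other genes 36.8%). Of the 45 intragenic regions, 44 lay in an intron of the family gene itself. The remaining 1, annotated to a 3′ UTR, lay upstream of the annotated Sema3b start. In the unmerged lists the intragenic share was likewise above that of all peaks, with 66.4% of family peaks intragenic in E12KO and 63.9% in E47KO (all peaks 38.0% and 39.4%), against 58.7%, 69.2% and 66.2% in the wt lists (all peaks 39.6%, 40.7% and 39.8%). The part of gene length in this share was not tested.

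The promoter share rested on which wt lists were used. Promoters held 12.2% of the family peaks in E12KO and 12.3% in E47KO (all peaks 27.5% and 25.3%), against 26.1%, 6.15% and 12.7% in the wt lists (all peaks 23.1%, 19.5% and 24.9%), so in wt replicate 1 alone the family share was the higher. Of the 11 family promoter regions, 7 (63.6%) were in wt replicates 1 and 3 but not in wt replicate 2, against 15.6% of the 2757 promoter regions of all genes. Without wt replicate 2 the promoter share of the family regions was 26.2% (all regions 20.8%), and without wt replicate 1 it was 6.56% (all regions 20.9%). Its place above or below that of all regions therefore changed with a single library. E12KO held 11 of the 11 family promoter regions and E47KO held 10 (90.9%), near the 96.5% and 92.3% of all promoter regions.

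Intron 1 held 13 of the 42 ligand regions (31%, 19.1 to 46.0), 8 of them in Sema5b, and 1 of the 30 receptor regions (3.33%, 0.591 to 16.7), that of Plxna2. Over all wt consensus regions the share was 12.7%, so the ligand share lay above it and the receptor share below it, with a single gene giving most of the ligand regions and no test made. Intragenic shares were 64.3% for ligands and 60.0% for receptors. The median distance from the annotated start was 34.7 kb for ligands and 41.1 kb for receptors, against 21.3 kb over all regions.

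In wt replicate 1, the only list with enrichment values, the family peaks were about as strong as the rest. The 46 family peaks had a median fold enrichment of 8.13 (95% interval 6.29 to 10.3 by order statistics, range 3.81 to 53.5), and all 6814 peaks a median of 7.48 (range 1.69 to 106). Of the 46, 11 (23.9%) exceeded the upper quartile of the list, 10.9-fold, where 25% of the peaks of other genes did. The 29 ligand peaks had a median of 7.48 and the 17 receptor peaks 8.43. Those 11 belonged to Plxnb2, Sema6d, Sema5b, Plxna2, Sema4b, Plxna1, Sema3b and Plxna4, Sema5b holding 4 of them.

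**Figure D4:**
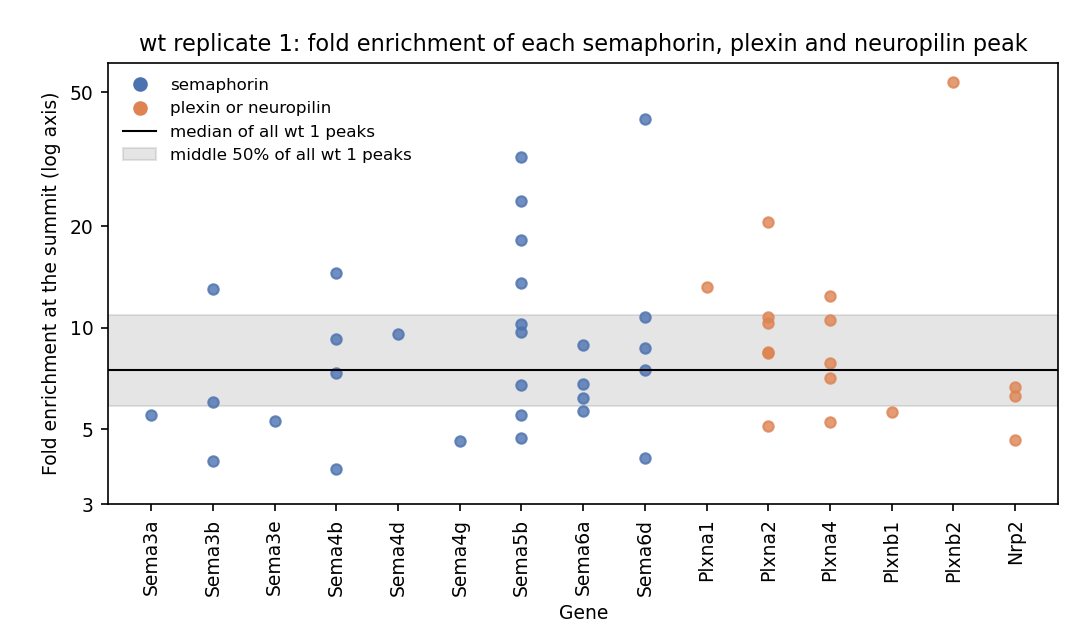
Fold enrichment at the summit (vertical, log axis) of each of the 46 family peaks in wt replicate 1, by gene (horizontal; semaphorins blue, plexins and neuropilins orange), with the median (line) and middle 50% (grey band) of all 6814 peaks. Peaks at Plxnb2, Sema6d and Sema5b stand well above the band, and 11 of the 46 lie above it.

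Most family regions kept a peak in the absence of E12 or of E47. E12KO had a peak at 67 of the 72 (93.1%, 84.8 to 97.0) and E47KO at 66 (91.7%, 83.0 to 96.1), against 96.6% and 93.5% of all wt consensus regions. A peak was thus missing for 5 regions in E12KO, where 3.34% of the regions of other genes lacked one, and for 6 in E47KO (other genes 6.49%). Ligand regions with a peak numbered 38 of 42 in E12KO and 38 in E47KO, and receptor regions 29 of 30 and 28. The receptor intervals (83.3 to 99.4 in E12KO, 78.7 to 98.2 in E47KO) held the values of all regions, and the ligand interval for E12KO, 77.9 to 96.2, ended just under that of all regions. Both knockouts held 64 regions. Missing from both were 3, where 1.85% of the regions of other genes were. In all 5 lists were 30 regions (41.7%, 31 to 53.2; other genes 33.6%).

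The 3 regions missing from both knockouts were intronic, at Sema3a (chr5:13470001-13470551, intron 6), Sema6d (chr2:124070491-124070985, intron 2) and Plxna4 (chr6:32429189-32429511, intron 3). All 3 were in wt replicates 2 and 3 only. Their peaks were 214 to 265 bp wide in wt replicate 2 and 323 to 551 bp in wt replicate 3. The median width of family peaks was 393 bp and 523.5 bp in these 2 lists. Missing only from E12KO were the Sema5b intron 1 region given above and a Sema6d region 256 kb upstream of its start (chr2:123659339-123659652). Missing only from E47KO were the Sema3c upstream region, the Sema4g promoter and the Nrp2 intron 13 region. At the Sema4g promoter the E12KO peak overlapped the wt peaks only in part, so its presence there rests on the overlap rule of 1 bp. Apart from the Sema5b region, each of these regions was in 2 of the 3 wt lists.

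In 2 of 3 such comparisons the family regions of a pair of wt lists were found less often in the remaining wt list than in either knockout. Among the 61 family regions that wt replicates 2 and 3 share, 91.8% were also in E12KO and 93.4% in E47KO, against 50.8% in wt replicate 1 (all such regions 98.2%, 96.0% and 38.4%). Among the 42 in wt replicates 1 and 3, 97.6% were also in E12KO and 95.2% in E47KO, against 73.8% in wt replicate 2 (all 95.9%, 92.6% and 77.0%). Among the 31 in wt replicates 1 and 2, 96.8% were also in E12KO and 100% in E47KO, against 100% in wt replicate 3 (all 99.3%, 97.9% and 98.9%). Over the regions of all genes too, wt replicates 1 and 2 gave a lower share than either knockout when held out. The lowest share belonged to wt replicate 1, the shortest list, and the lists of the knockouts and of wt replicate 3 are the longest; the part of list length in these shares was not tested. Of the 41 family regions in exactly 2 wt lists, 37 were in E12KO (90.2%; all such regions 95.1%) and 35 in E47KO (85.4%; all 90.9%). Of the 31 in all 3 wt lists, 30 were in E12KO (96.8%; all 99.6%) and 31 in E47KO (all 98.4%).

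**Figure D5:**
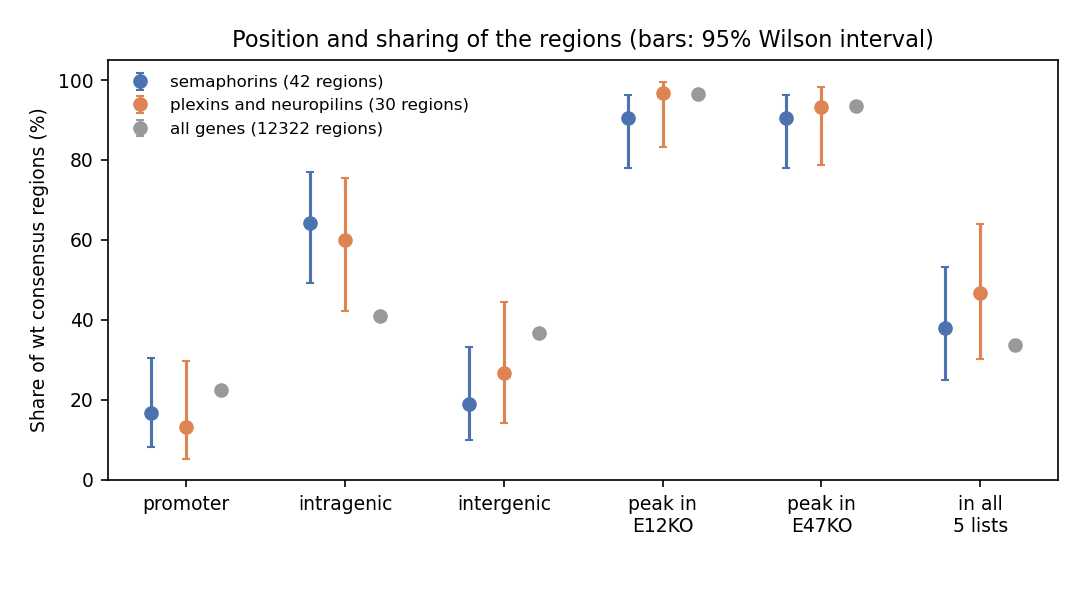
Share of the wt consensus regions (vertical, %) that lie in a promoter, inside a gene or between genes, or that have a peak in E12KO, in E47KO or in all 5 lists (horizontal), for semaphorins (blue), plexins and neuropilins (orange) and all genes (grey), with 95% Wilson intervals as bars. The intragenic shares of ligands (64.3%) and receptors (60.0%) lie above that of all regions (40.9%), and the share of all regions with a peak in E12KO (96.6%) lies just above the ligand interval, 77.9 to 96.2.

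Peaks found in both knockouts and in no wt list numbered 7 for the family, out of 1441 over all genes. Sema6a had 3 of them, in an exon and an intron 63.3 to 64.5 kb after its start (chr18:47463532-47464477 and chr18:47464978-47465378) and 195 kb after it (chr18:47333588-47333929). The others lay at the Sema3c promoter (chr5:17080042-17080714, 256 bp upstream), in intron 11 of Sema5a (chr15:32514628-32514968), in intron 3 of Plxna2 (chr1:196508142-196508569) and 419 kb upstream of Nrp1 (chr8:130463112-130464061). At the Sema3c promoter the peak was 337 bp wide in E12KO and 673 bp in E47KO. E12KO alone added 9 family regions and E47KO alone 13, out of 3141 and 1739 over all genes. Found in a single wt list were 3, 4 and 70 family regions for replicates 1, 2 and 3, out of 1133, 1466 and 11896. Of the 70 in wt replicate 3 alone, 47 had a peak in E12KO and 40 in E47KO, and of all regions in that list alone 70.4% and 58.8% did.

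Some of the genes that act with the family also had wt consensus regions. Of 39 coreceptors and effectors listed from textbook knowledge, 20 had a wt consensus region (51.3%; 27.3% among protein-coding genes other than the family), and 12 had one within 10 kb (30.8%; 16.3% in the same comparison). These genes were not set beside others of like length. By role, 5 of 11 coreceptors and 15 of 28 effectors had a wt consensus region. An intergenic region lay 78116 bp upstream of Fyn, a kinase that acts after Sema3a (chr10:39010819-39012159, 24.6-fold). An intergenic region 151040 bp upstream of Itgb1, the integrin subunit that serves Sema7a, had 15.6-fold enrichment (chr8:131058096-131058931), and an intronic region of Mical2, an actin-oxidizing enzyme, had 6.6-fold. The intergenic regions were given to the nearest start only, and the gene they act on is not known from these data. That of Itgb1 also lies downstream of the Nrp1 start on the same chromosome. Of the 38 regions of these genes, 35 had a peak in E12KO (92.1%; all wt consensus regions 96.6%) and 33 in E47KO (86.8%; all 93.5%).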

How the data were processed

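E2A ChIP-seq peak lists of neural stem cells were analysed for E12KO, E47KO and wt replicates 1 to 3, grouped by the labels. Fixation used 1.5 mM EGS and then 1% formaldehyde, and 1.5 µg of anti-E2A antibody went into each precipitation, per the labels' protocols. The tools were MACS2 2.1.0, Picard 1.119 and BWA 0.7.13 with the mm9 build, per the submitters' processing notes; their settings are not given in the sources used. Lists were deposited per library, with nearest gene, feature and distance, per the file headers. For wt replicate 1 the deposited table adds, per the file headers, the pileup signal (coverage), the −log10 p and −log10 q and the fold enrichment ratio of each peak, as the authors' caller gave them; the other 4 tables hold none. The list of wt replicate 1 carries another false discovery rate label than the rest and has no peak under 280 bp, so its overlaps may differ for that reason.

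Peaks overlapping by at least 1 bp were merged over the wt lists with pandas 2.3.3 in Python 3.11.15, and a region in at least 2 of 3 wt lists was kept, annotated as in wt replicate 3, else 2, else 1. A region belonged to a gene when any of its wt peaks named it. Distances run from a region's midpoint to the annotated transcript start, and positions are those of the deposited tables. Because a region can be given to another transcript of the same gene than the longest, its distance need not match its intron number. Shares have 95% Wilson intervals (scipy 1.17.1), which cover counting error only. Genotypes were not tested against each other: a knockout has 1 library, and genes and regions are not replicates. The overlap steps were tested on simulated lists of well-separated sites, with nearly centred peaks of at least 150 bp. Neighbouring sites, overlaps at peak edges and shorter peaks were not covered by that test. Alternatives were a stricter overlap of 50%, regions in all 3 wt lists, each wt replicate left out, stricter gene assignment, no peaks under 150 bp, −log10 q of at least 5, and other distance limits.

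The genes and lists were chosen with earlier results of these data known. Named were each gene's strongest region (or the one in most lists, then widest, where wt replicate 1 has no value), its promoter regions, regions in all 3 wt lists missing from a knockout, regions that both knockouts but no wt list hold, and at most 4 other pathway genes, of which 1 is not reported here; further regions were added after their values were seen. Promoter sequences are from RefSeq (GRCm38.p6), and no coordinate was converted between builds.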

Additional observations from a re-analysis of the deposited data

How the results depend on the processing

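Of 86 alternative values, 67 moved by less than 1.5 times (counts) or stayed within the interval (shares), and 19 moved further. Requiring all 3 wt lists left 11 genes with a region, 7 of them within 10 kb, and 31 regions (0.85 per ligand and 1.27 per receptor), of which 100% had a peak in E47KO. A distance limit of 50 kb gave 20 genes. Leaving out each wt replicate gave 11 to 18 genes, 7 to 11 within 10 kb, 31 to 61 regions, 0.85 to 1.75 per ligand and 1.27 to 2.36 per receptor. The lowest of each came without wt replicate 3, the longest list, since a region must then be in both shorter lists. The share with a peak was then 91.8% to 97.6% in E12KO and 93.4% to 100% in E47KO, intragenic 59.5% to 67.7%, intergenic 14.3% to 26.2% and promoter 6.56% to 26.2%. The intragenic share lay above that of all regions in 9 of 9 settings. No paired analysis was possible because each knockout has 1 library and no result comes from a test. Read depth is unknown, so a missing peak is not an absent binding, and only wt replicate 1 has a measure of peak strength. Distant peaks are given to the nearest start.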
